A study of Mus musculus with 18 samples.

Results

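The 8 genes described here encode proteins that make or guard microRNAs, namely Drosha, Dgcr8, Xpo5, Dicer1, Tarbp2, Prkra, Lin28b and Tsn. They were found by their symbols among the 51499 assembled loci of the deposited expression table, and each symbol matched 1 locus. RNA had been sequenced from 18 libraries of mouse embryonic fibroblasts (MEFs), in 6 groups of 3 libraries. Groups were labelled by Ago2 genotype, Ago2+/+ or Ago2-/-, and by treatment, with the solvent DMSO, with tunicamycin, or with thapsigargin at 500 nM. Tunicamycin blocks N-linked glycosylation and thapsigargin blocks the calcium pump of the endoplasmic reticulum (ER), so both cause ER stress. Both MEF lines came to the study as a gift and had not been authenticated, although the study states that it tested the Ago2-/- line by western blot for the absence of Ago2. Neither the labels nor the methods give the deleted region of Ago2, the sex or the clonal origin of the lines. The deposited table gives 1 FPKM per locus and group, pooled by the authors over the 3 libraries. FPKM stands for fragments scaled to transcript length and to library size, and no source used here gives the rule for library size. No value per library was used, so no difference below has an SD or a test, and the number of libraries behind each pooled value limits its precision.

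MicroRNAs are cut from long primary transcripts in successive steps. In the nucleus Drosha, an RNase III enzyme, and its RNA-binding partner Dgcr8 form the Microprocessor and release a hairpin precursor. Exportin 5, the product of Xpo5, carries the hairpin to the cytoplasm, where the RNase III enzyme Dicer (Dicer1) removes the loop. The double-strand RNA-binding proteins TRBP (Tarbp2) and PACT (Prkra) are partners of Dicer, and a strand of the duplex is then loaded into an Argonaute protein such as Ago2. Lin28b binds let-7 precursors and blocks their processing. Translin (Tsn) forms with its partner Tsnax an endoribonuclease complex that acts on small RNA strands.

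The substrate of these enzymes is shown by the let-7a hairpin of Mirlet7a-1 (chr13:48538179-48538272, minus strand, GRCm38.p6, RefSeq), because let-7 is the family that Lin28b holds back. Drosha cuts at the base of the stem and Dicer near the loop, which frees both arms. Capitals mark the mature arms.
Mirlet7a-1: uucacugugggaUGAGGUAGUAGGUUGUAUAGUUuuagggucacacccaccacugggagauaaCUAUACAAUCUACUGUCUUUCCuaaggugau
Here capitals mark the seed, bases 2 to 8 of the mature strand, which pairs with target mRNAs.
mmu-let-7a-5p: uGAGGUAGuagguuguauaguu
Among 1679 mature mouse microRNAs in the RefSeq table, 11 carry this seed, most of them members of the let-7 family. MicroRNAs themselves were not measured in these libraries.

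A further hairpin, Mir1306 (chr16:18284239-18284317, minus strand), is printed because it lies inside a member. It falls within the coding part of exon 2 of Dgcr8 on the same strand, and its mature arms are in capitals.
Mir1306: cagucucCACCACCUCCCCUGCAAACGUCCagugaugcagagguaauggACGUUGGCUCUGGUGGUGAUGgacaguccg
The Microprocessor is known to cut hairpins within Dgcr8 mRNA, a feedback on its own supply. In the deposited table the locus that holds Dgcr8 also holds Mir1306 and the small RNA gene Gm24572, so these genes were not counted apart.

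Several groups stood against their labels, and this touches every comparison below. Ago2, the gene deleted by label, had 22.1, 5.75 and 17.0 FPKM in the groups labelled Ago2+/+ under DMSO, tunicamycin and thapsigargin, and 5.61, 15.5 and 20.7 FPKM in the groups labelled Ago2-/-. It was therefore not lower throughout the Ago2-/- label, although a deletion of part of the gene can leave RNA that is still counted. Of the Y chromosome, Uty, Kdm5d, Eif2s3y and Ddx3y stood at 0 in 4 groups and ranged from 6.03 to 32.3 FPKM in Ago2+/+ thapsigargin and Ago2-/- tunicamycin. Xist was at 46.6 and 33.5 FPKM in Ago2+/+ DMSO and Ago2-/- thapsigargin and at most 0.0574 FPKM elsewhere. Across the 11929 loci that averaged 1 FPKM or more, Spearman's rho was 0.977 to 0.985 within 3 pairs of groups and 0.876 to 0.906 for the other 12 pairings. These close pairs were Ago2+/+ tunicamycin with Ago2-/- DMSO, Ago2+/+ thapsigargin with Ago2-/- tunicamycin, and Ago2+/+ DMSO with Ago2-/- thapsigargin. For 4 libraries the labels also conflict on genotype, 1 in each Ago2+/+ group and 1 in Ago2-/- DMSO. Groups are therefore named only as labelled, and an effect of a stressor or of Ago2 cannot be told apart from a difference between the close pairs. The ER chaperone gene Hspa5 was highest in Ago2-/- DMSO at 7682 FPKM and lowest in Ago2-/- thapsigargin at 3677 FPKM, and the stress-induced Ddit3 ranged from 237 to 349 FPKM. Of 12 fibroblast markers, 9 had a mean of at least 1 FPKM, and Thy1 was listed at 0. The summed level was 3651 to 4169 FPKM, but this sum hides unlike markers, since the 9 had a median range of 12.9-fold. Col1a1 ranged from 5.97 FPKM in Ago2-/- DMSO to 651 FPKM in Ago2-/- tunicamycin. Summed markers of pluripotent cells reached 0.133 FPKM (3 of 5 at 0 throughout), of epithelium 0.762 FPKM and of blood and endothelium 1.97 FPKM, the last almost wholly Cd68.

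Of the 8 members, 6 had a mean of at least 1 FPKM over the 6 groups, and Dgcr8 and Lin28b did not. FPKM is scaled for length, so levels may be compared between genes. Tsn had the highest mean, 69.6 FPKM, followed by Xpo5 at 59.6, Tarbp2 at 39.7, Drosha at 37.5, Dicer1 at 26.4 and Prkra at 13.1 FPKM. The median locus past the same filter had a mean of 16.1 FPKM, so 5 of the 6 lay above it. Neighbours in this order had overlapping ranges over the 6 groups, except Dicer1 and Prkra, whose lowest and highest levels were 17.5 and 15.2 FPKM. Within each group the order was steadier than the ranges show. Tsn exceeded Xpo5, Xpo5 exceeded Tarbp2 and Dicer1 exceeded Prkra in 6 of 6 groups, Drosha exceeded Dicer1 in 5, and Tarbp2 exceeded Drosha in 4.

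**Figure D1:**
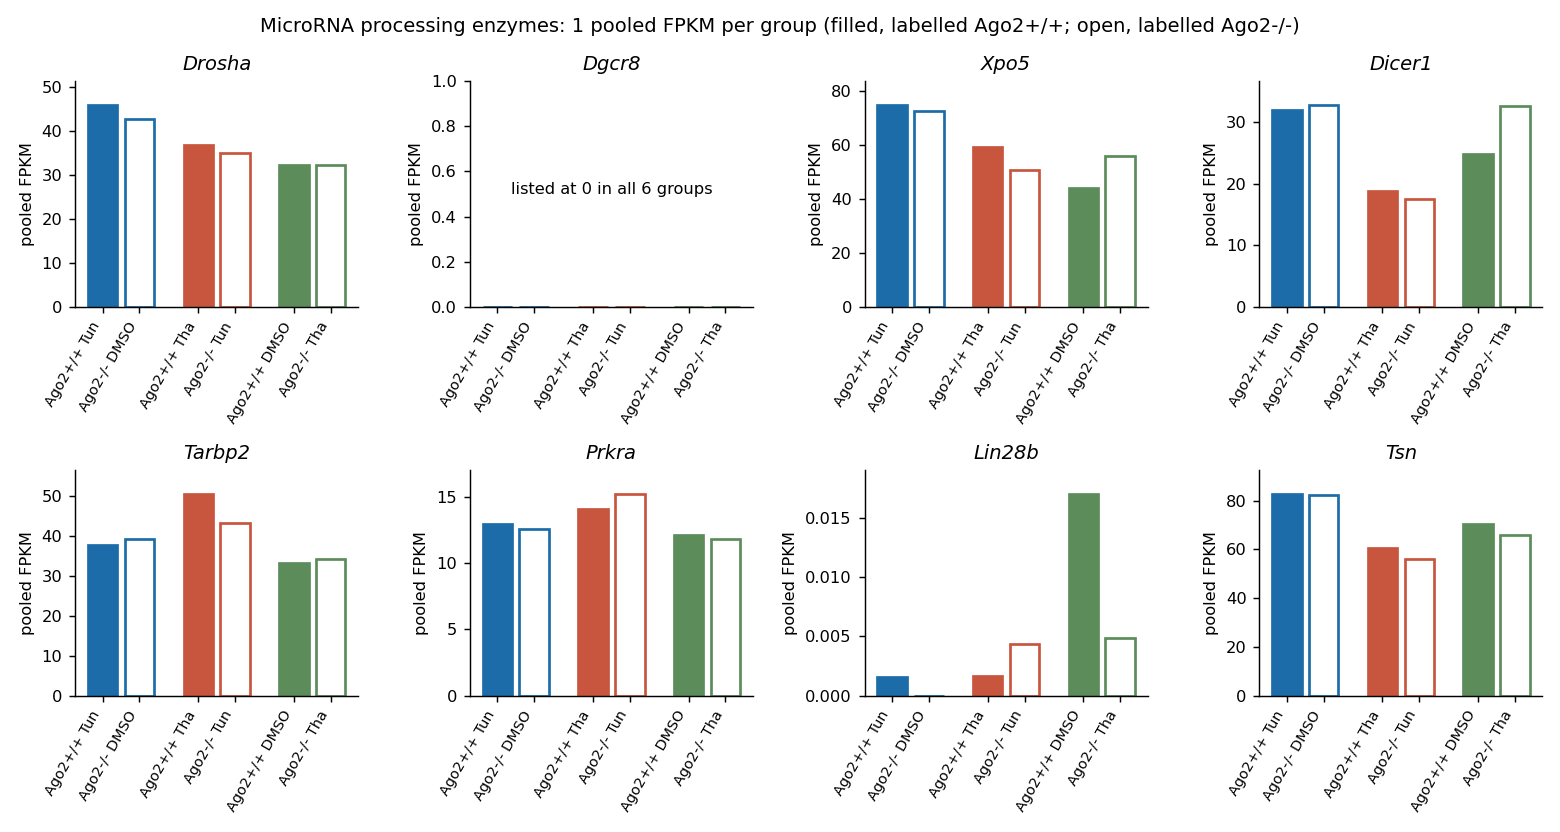
Bars give the pooled FPKM (vertical axis, from 0, with a scale of its own in each panel) of each member in the 6 groups, with close pairs side by side in 1 colour, filled for the Ago2+/+ label and open for the Ago2-/- label (Tun, tunicamycin; Tha, thapsigargin). Drosha, Xpo5 and Tsn stand highest in the pair at the left, Tarbp2 and Prkra in the middle pair, and Dicer1 is lowest in the middle pair; Dgcr8 is listed at 0 and Lin28b stays at or below 0.0170 FPKM.

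Drosha (ENSMUSG00000022191, chr15:12824815-12935291, plus strand, GRCm38) had, in the Ago2+/+ label, 32.2 FPKM under DMSO, 45.9 FPKM under tunicamycin and 36.9 FPKM with thapsigargin. The Ago2-/- label had 42.7, 35.1 and 32.2 FPKM for these treatments. The nuclear RNase III was thus highest in 1 close pair and nearly level over the other 4 groups, and its highest level was 1.43 times its lowest. Its locus in the table also carries the name AC133189.1, an annotation whose fragments were not counted apart.

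Dgcr8 (ENSMUSG00000022718, chr16:18253948-18289246, minus strand), the RNA-binding subunit of the Microprocessor, was listed at 0 in all 6 groups. This 0 can be a failed estimate. The 4 loci given the same span in the table (chr16:18239784-18289249) were Dgcr8, the snoRNA gene Gm25777 and the protein-coding genes Trmt2a and Ranbp1. Trmt2a, a tRNA methyltransferase gene, was also listed at 0 throughout, and Ranbp1, which encodes a partner of the Ran GTPase and is broadly used by dividing cells, reached at most 0.0290 FPKM. Over the table, 4413 of 21046 loci with a protein-coding gene (21.0%) were listed at 0 in every group. No fold was computed for Dgcr8, and nothing about its expression is read from these values.

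Xpo5 (ENSMUSG00000067150, chr17:46202782-46243598, plus strand), the export receptor, had 44.1, 74.7 and 59.1 FPKM in the Ago2+/+ groups under DMSO, tunicamycin and thapsigargin. Under the Ago2-/- label the same treatments gave 72.7, 50.9 and 55.9 FPKM. Its level was highest in the close pair of Ago2+/+ tunicamycin with Ago2-/- DMSO, as for Drosha, and lowest in Ago2+/+ DMSO. The highest level was 1.69 times the lowest. The span given for its locus is shared with Mir693 and Gm22474.

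Dicer1 (ENSMUSG00000041415, chr12:104687742-104751952, minus strand) varied most among the 6 members, with a highest level 1.86 times the lowest. In the Ago2+/+ label it had 24.9 FPKM under DMSO, 32.0 FPKM under tunicamycin and 18.7 FPKM with thapsigargin. In the Ago2-/- label it had 32.7, 17.5 and 32.6 FPKM in the same order. The 3 highest groups, at 32.0 to 32.7 FPKM, were nearly level, and the lowest levels were those of the close pair in which Y-linked genes were detected. In the third close pair the values were 24.9 and 32.6 FPKM, so Dicer1 did not follow the pairs there.

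Tarbp2 (ENSMUSG00000023051, chr15:102518192-102523676, plus strand) had, in the Ago2+/+ label, 33.4 FPKM under DMSO, 37.7 FPKM under tunicamycin and 50.6 FPKM with thapsigargin. Under the Ago2-/- label it had 39.2, 43.4 and 34.2 FPKM in the same order of treatments. TRBP RNA was highest in the pair where Dicer1 RNA was lowest, and its highest level was 1.52 times the lowest. Prkra (ENSMUSG00000002731, chr2:76629898-76648015, minus strand), which encodes PACT, the second partner of Dicer and an activator of the kinase PKR, had 12.1, 12.9 and 14.1 FPKM in the Ago2+/+ groups and 12.6, 15.2 and 11.8 FPKM in the Ago2-/- groups. Its range was the narrowest of the 6, at 1.29-fold, and its 2 highest groups were the same as those of Tarbp2.

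Lin28b (ENSMUSG00000063804, chr10:45376620-45486395, minus strand) was near 0 throughout. It had 0.0170, 0.00154 and 0.00163 FPKM in the Ago2+/+ groups and 0, 0.00437 and 0.00485 FPKM in the Ago2-/- groups under DMSO, tunicamycin and thapsigargin. Its paralogue Lin28a was above 0 only in Ago2+/+ tunicamycin, at 0.00320 FPKM. The depth behind the pooled values is unknown, so no fold was taken for either gene. Tsn (ENSMUSG00000026374, chr1:118294778-118311739, minus strand) had 70.4, 82.8 and 60.4 FPKM in the Ago2+/+ groups and 82.2, 55.9 and 66.1 FPKM in the Ago2-/- groups. Translin RNA was highest in the same close pair as Drosha and Xpo5 and lowest in the pair where Dicer1 was lowest, with a range of 1.48-fold.

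By the ratio of highest to lowest group, Xpo5, Dicer1 and Tarbp2 reached 1.5 and Drosha, Prkra and Tsn did not. Tarbp2 at 1.52 and Tsn at 1.48 were those just inside and just outside. Of 11607 loci that averaged at least 1 FPKM and had no 0, 68% reached that ratio, with a median of 1.73. The share among members, 3 of 6, was below this background, but a set of 6 is too small to set it apart from that share. Only Dicer1 exceeded the median. A narrower range than that of Dicer1 was found for 57.2% of loci, and a narrower range than that of Prkra for 11.2%.

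Whether a stressor changed the enzymes was asked within each genotype label, as the ratio of the pooled FPKM under the stressor to that under DMSO. A ratio of at least 1.5 in either direction was counted. Under tunicamycin in the Ago2+/+ label, 33.4% of loci reached it (17% higher, 16.3% lower) and 1 of 6 members did, Xpo5 with a ratio of 1.69 (log2 0.76). All 6 members had ratios above 1, with a median log2 ratio of 0.30, against 0.01 over all loci. Drosha followed at 0.51 and Dicer1 at 0.36 on the log2 scale, and Prkra was nearest to no difference at 0.09.

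Under thapsigargin in the Ago2+/+ label, 31.8% of loci reached 1.5-fold (16.3% higher, 15.5% lower) and again 1 of 6 members, now Tarbp2 with a ratio of 1.52 (log2 0.60). With the groups scaled by their upper quartiles Tarbp2 had a log2 ratio of 0.55 and no longer reached it. Dicer1 and Tsn had log2 ratios of −0.41 and −0.22, opposite in sign to Xpo5 at 0.42, Prkra at 0.22 and Drosha at 0.20.

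In the Ago2-/- label, tunicamycin over DMSO gave 41.2% of loci past 1.5-fold (21.4% higher, 19.9% lower). Dicer1 was the member that reached it, with 0.536 times its DMSO level (log2 −0.90). Tsn, Xpo5 and Drosha were also lower under tunicamycin, with log2 ratios of −0.56, −0.51 and −0.28, and Prkra and Tarbp2 were higher, at 0.27 and 0.15. The median over the 6 was −0.40, against 0.00 over all loci. Thapsigargin over DMSO in the same label gave 35.8% of loci past 1.5-fold (16.8% higher, 19.1% lower) and 0 of 6 members. Drosha had a log2 ratio of −0.41, Xpo5 of −0.38, Tsn of −0.31, Tarbp2 of −0.20 and Prkra of −0.09, while Dicer1, at 32.7 and 32.6 FPKM, had nearly the same level in both groups. In each of these 4 comparisons the share of members past 1.5-fold was under that of all loci. Among loci that averaged 5 FPKM or more, as each of the 6 members did, the shares were 27.5%, 25.3%, 35.5% and 29.9% in the order given. A set of 6 is too small for this to be read as a result about the members. The comparisons within a label share their DMSO group, so they are not independent of each other.

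**Figure D2:**
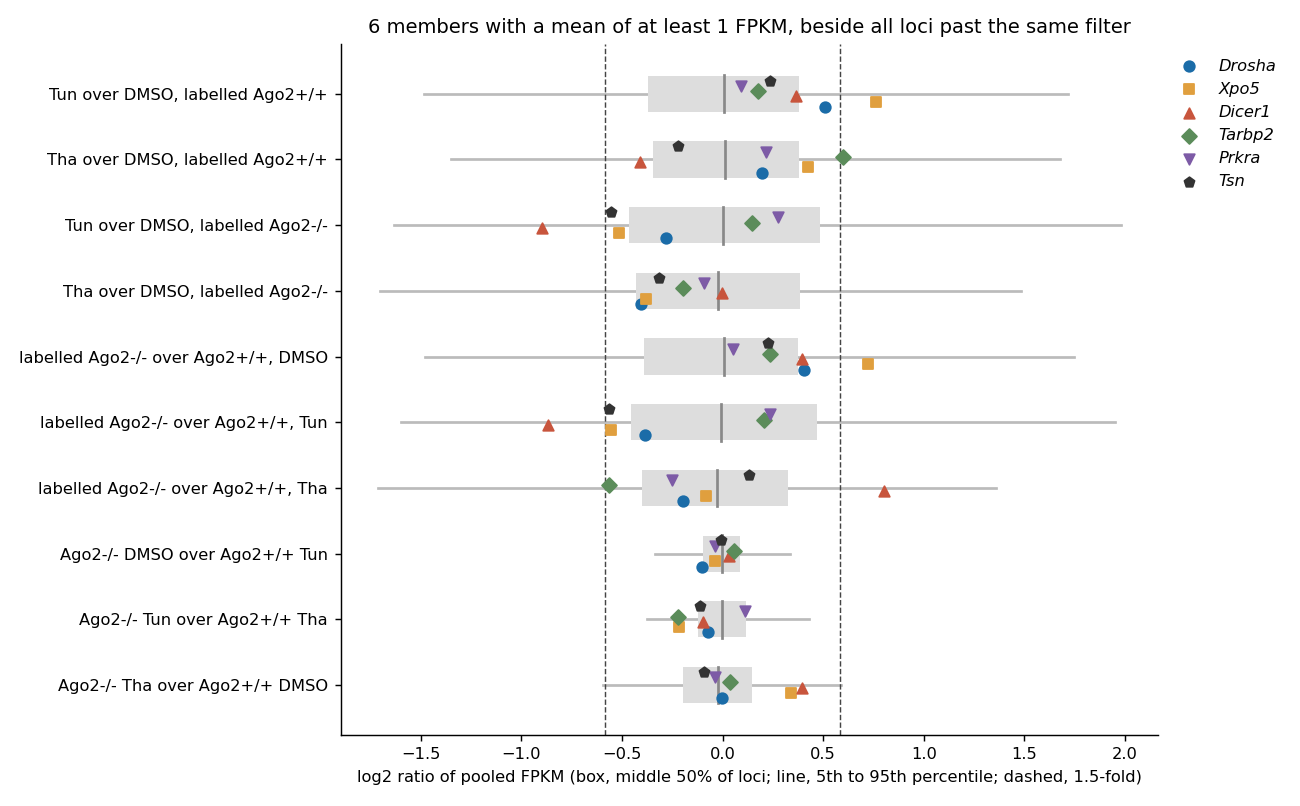
Points give the log2 ratio of pooled FPKM (horizontal axis) of the 6 members with a mean of at least 1 FPKM in the 10 comparisons (vertical axis); grey boxes span the middle 50% of all loci past the same filter, grey lines the 5th to 95th percentile, and dashed lines mark 1.5-fold. Xpo5 lies past the line under tunicamycin in the Ago2+/+ label and between labels under DMSO, Dicer1 lies past it in 3 comparisons, and every member lies between the lines in the 3 close pairs.

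The genotype labels were compared at each treatment. Under DMSO, 33.8% of loci differed by 1.5-fold (17% higher in Ago2-/-, 16.8% lower), and Xpo5 was the member that did, with 1.65 times the level in the Ago2-/- label (log2 0.72). The other 5 members were also higher in that label, from Prkra at 0.05 to Drosha at 0.41 on the log2 scale. Under tunicamycin 40.1% of loci differed (20.6% higher, 19.5% lower), and Dicer1 was 0.548 times as high in the Ago2-/- label (log2 −0.87). Tsn and Xpo5 came close to the limit, with log2 ratios of −0.57 and −0.55, where the limit is 0.58. Prkra and Tarbp2 had the opposite sign, at 0.24 and 0.20.

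Between labels under thapsigargin 32.7% of loci differed by 1.5-fold (15.2% higher, 17.6% lower), and Dicer1 was 1.74 times as high in the Ago2-/- label (log2 0.80). Tarbp2 was lower there, with a log2 ratio of −0.56, just short of the limit. Thus Dicer1 was lower in the Ago2-/- label under tunicamycin and higher under thapsigargin, and the direction between labels depended on the treatment. Ago2 itself had the opposite order in the first of these, with 15.5 FPKM in Ago2-/- tunicamycin and 5.75 in Ago2+/+ tunicamycin, and 20.7 against 17.0 FPKM under thapsigargin.

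Within the close pairs few loci differed by 1.5-fold, so that 0 of 6 members past the limit is near the background and says nothing particular to the enzymes. Between Ago2-/- DMSO and Ago2+/+ tunicamycin, 3.8% of loci differed by 1.5-fold and 0 of 6 members, and the largest difference among members was that of Drosha, with a log2 ratio of −0.10. Between Ago2-/- tunicamycin and Ago2+/+ thapsigargin, 4.73% of loci and 0 of 6 members differed by that much, and Tarbp2 and Xpo5 had log2 ratios of −0.22. Between Ago2-/- thapsigargin and Ago2+/+ DMSO, 10.3% of loci and 0 of 6 members did, but Dicer1 at 0.39 and Xpo5 at 0.34 were higher in Ago2-/- thapsigargin, above the 75th percentile of all loci at 0.15. Some fibroblast markers moved with the pairs, in unlike directions. Not all did, since 1, 1 and 3 of 9 such markers differed by 1.5-fold within the pairs in the order named. These were larger shares than those of all loci. Col1a1 had 5.97 and 6.77 FPKM, 651 and 521 FPKM, and 87.1 and 112 FPKM in the pairs in the order named, with the Ago2-/- group first. Vim, which encodes vimentin, was lowest where Col1a1 was highest, at 952 and 1181 FPKM against 1290 to 2634 FPKM elsewhere. S100a4, in a locus shared with S100a3, was also lowest there, at 330 and 285 FPKM against 937 to 1967 FPKM. The part of these markers in the members' differences was not tested. In bulk RNA, fewer cells of a type and less RNA per cell cannot be told apart.

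Ratios between members within a group do not depend on how the group was scaled. The low Dicer1 level in 1 close pair, given above, by itself raises each ratio to Dicer1 there. Such ratios were not taken for other pairs of loci, so they have no background. Tarbp2 over Dicer1 was 1.34, 1.18 and 2.70 under DMSO, tunicamycin and thapsigargin in the Ago2+/+ label, and 1.20, 2.47 and 1.05 in the Ago2-/- label. The ratio was thus high in 1 close pair and lower in the other 4 groups, with no overlap. Prkra over Dicer1 had the same division, at 0.752 and 0.868 in that pair and 0.362 to 0.488 elsewhere. The RNAs of both partners kept closer to each other, with Tarbp2 over Prkra between 2.75 and 3.59. Upstream of Dicer, Xpo5 over Drosha stayed between 1.37 and 1.74, whereas Xpo5 over Dicer1 ran from 1.71 to 3.15 and Drosha over Dicer1 from 0.986 to 2.0.

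**Figure D3:**
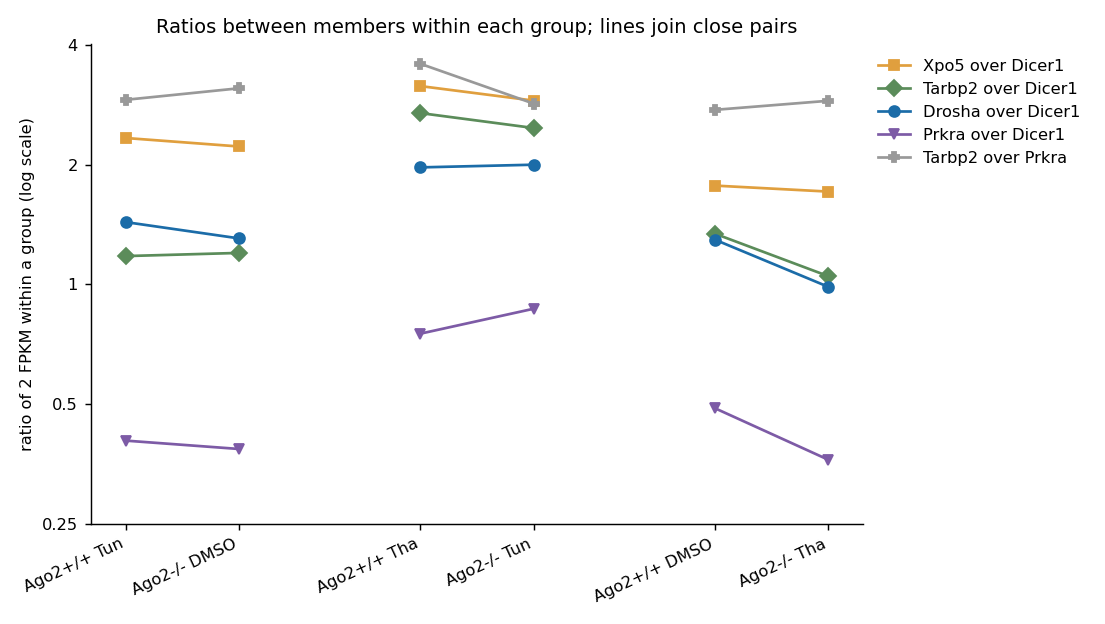
Each point is the ratio of the pooled FPKM of 2 members within a group (vertical axis, log scale), for the 6 groups on the horizontal axis, and lines join close pairs (Tun, tunicamycin; Tha, thapsigargin). All 4 ratios to Dicer1 are highest in Ago2+/+ thapsigargin and Ago2-/- tunicamycin, where Tarbp2 over Dicer1 is 2.70 and 2.47, and Tarbp2 over Prkra stays between 2.75 and 3.59.

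Other genes of the pathway were taken from lists of 39 partner genes, of which 38 had a mean of at least 1 FPKM. By the ratio of highest to lowest group, 19 of the 38 reached 1.5, with a median of 1.5, against 68% and a median of 1.73 over all loci. In the Ago2+/+ label 6 of 38 were past 1.5-fold under tunicamycin (4 higher, 2 lower) and 4 under thapsigargin (3 higher, 1 lower). In the Ago2-/- label the counts were 13 (4 higher, 9 lower) and 6 (2 higher, 4 lower). Between genotype labels 7, 10 and 5 of 38 were past 1.5-fold under DMSO, tunicamycin and thapsigargin. In the close pairs 0, 1 and 1 were. In either direction together, each of these counts was as a share of the 38 below that of all loci for the same comparison. However, the 9 lower under tunicamycin in the Ago2-/- label were a larger share than the 19.9% of loci. Most of the 38 averaged 5 FPKM or more, and against loci with that mean not every count was below. Between Ago2-/- tunicamycin and Ago2+/+ thapsigargin 2.18% of such loci were past 1.5-fold, a smaller share than 1 of 38.

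The 11 partners of the Microprocessor include helicases, splicing factors and cap-binding proteins. Khsrp, which encodes KSRP, a protein that binds the loop of let-7 precursors and promotes their processing, varied most, with 34.7, 86.5 and 51.8 FPKM in the Ago2+/+ groups and 75.6, 50.4 and 41.2 FPKM in the Ago2-/- groups. It was highest in the close pair where Drosha and Xpo5 were highest. Ncbp2, the small subunit of the nuclear cap-binding complex, had the reverse, with its lowest levels, 29.5 and 31.3 FPKM, in that pair and 48.8 to 54.9 FPKM elsewhere. Hnrnpa1, an RNA-binding protein that remodels some primary hairpins, ranged from 420 to 668 FPKM.

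The 4 genes of nuclear export changed places little. Ran, the GTPase that exportin 5 needs to hold its cargo, had 335 FPKM in Ago2-/- tunicamycin and 451 to 523 FPKM in the other 5 groups, so it was the gene of this list past 1.5-fold. Its exchange factor Rcc1 ranged from 105 to 148 FPKM, in a locus that also holds the host gene Snhg3, and Xpo1, the exportin of proteins and other RNAs, from 85.0 to 107 FPKM.

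Enzymes that tail or degrade precursors numbered 10, of which Lin28a was below the filter. Zc3h12a, an endonuclease that cuts precursor loops, had 1.89 to 4.96 FPKM and was highest in Ago2-/- DMSO. The exonuclease genes Xrn2 and Xrn1 had 55.5 to 96.8 and 7.53 to 12.3 FPKM. Xrn2 was lowest in the pair where Dicer1 was lowest, at 60.9 and 55.5 FPKM. Among 6 further double-strand RNA-binding genes, Strbp ranged from 12.4 to 24.5, Stau2 from 7.60 to 14.6 and Adarb1 from 3.00 to 5.33 FPKM. Eif2ak2, which encodes PKR, the kinase that PACT activates and TRBP restrains, had 15.1, 12.7 and 15.8 FPKM in the Ago2+/+ groups and 12.4, 19.6 and 12.5 FPKM in the Ago2-/- groups, highest in the same group as Prkra.

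Tsnax, which encodes TRAX, the catalytic partner of translin, had the widest range of the pathway genes. It had 14.6, 45.1 and 42.8 FPKM in the Ago2+/+ groups under DMSO, tunicamycin and thapsigargin, and 46.9, 42.4 and 8.65 FPKM in the Ago2-/- groups. Both groups of 1 close pair were thus low and the other 4 groups nearly level, a 5.43-fold range. Tsn did not share this pattern, since the low pair had 70.4 and 66.1 FPKM of Tsn, in the middle of its range. Among 7 chaperone genes that serve Argonaute loading, Hsp90aa1 ranged from 403 to 726, Hsp90ab1 from 1371 to 2152 and Dnaja2 from 110 to 164 FPKM. Hsp90ab1 and Dnaja2 were highest in the pair where Xpo5 was highest.

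Genes known as let-7 targets in other settings were listed because Lin28b and the enzymes bear on let-7. Of 14, 13 passed the filter and 9 of these had a range of at least 1.5-fold, a share near the 68% of all loci. Their median range was 2.40-fold, against 1.73-fold over all loci. Hmga2, a chromatin protein of embryonic and transformed cells, had 104, 306 and 19.2 FPKM in the Ago2+/+ groups and 360, 14.7 and 149 FPKM in the Ago2-/- groups. Igf2bp1, an mRNA-binding protein, had 35.9, 80.5 and 20.2 FPKM and then 64.6, 17.4 and 34.5 FPKM. Both were lowest where Dicer1 was lowest and highest where Drosha and Xpo5 were highest. Ccnd2, a cyclin gene, was lowest in the latter pair, at 14.6 and 15.1 FPKM against 56.3 to 73.3 FPKM. The targets thus did not share a direction. Past 1.5-fold were 6 of 13 under tunicamycin (4 higher, 2 lower) and 6 under thapsigargin (1 higher, 5 lower) in the Ago2+/+ label, and 9 (2 higher, 7 lower) and 5 (2 higher, 3 lower) in the Ago2-/- label. As shares of 13 these exceeded the shares of all loci in the same comparisons, which is a description of a short list and was not tested.

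**Figure D4:**
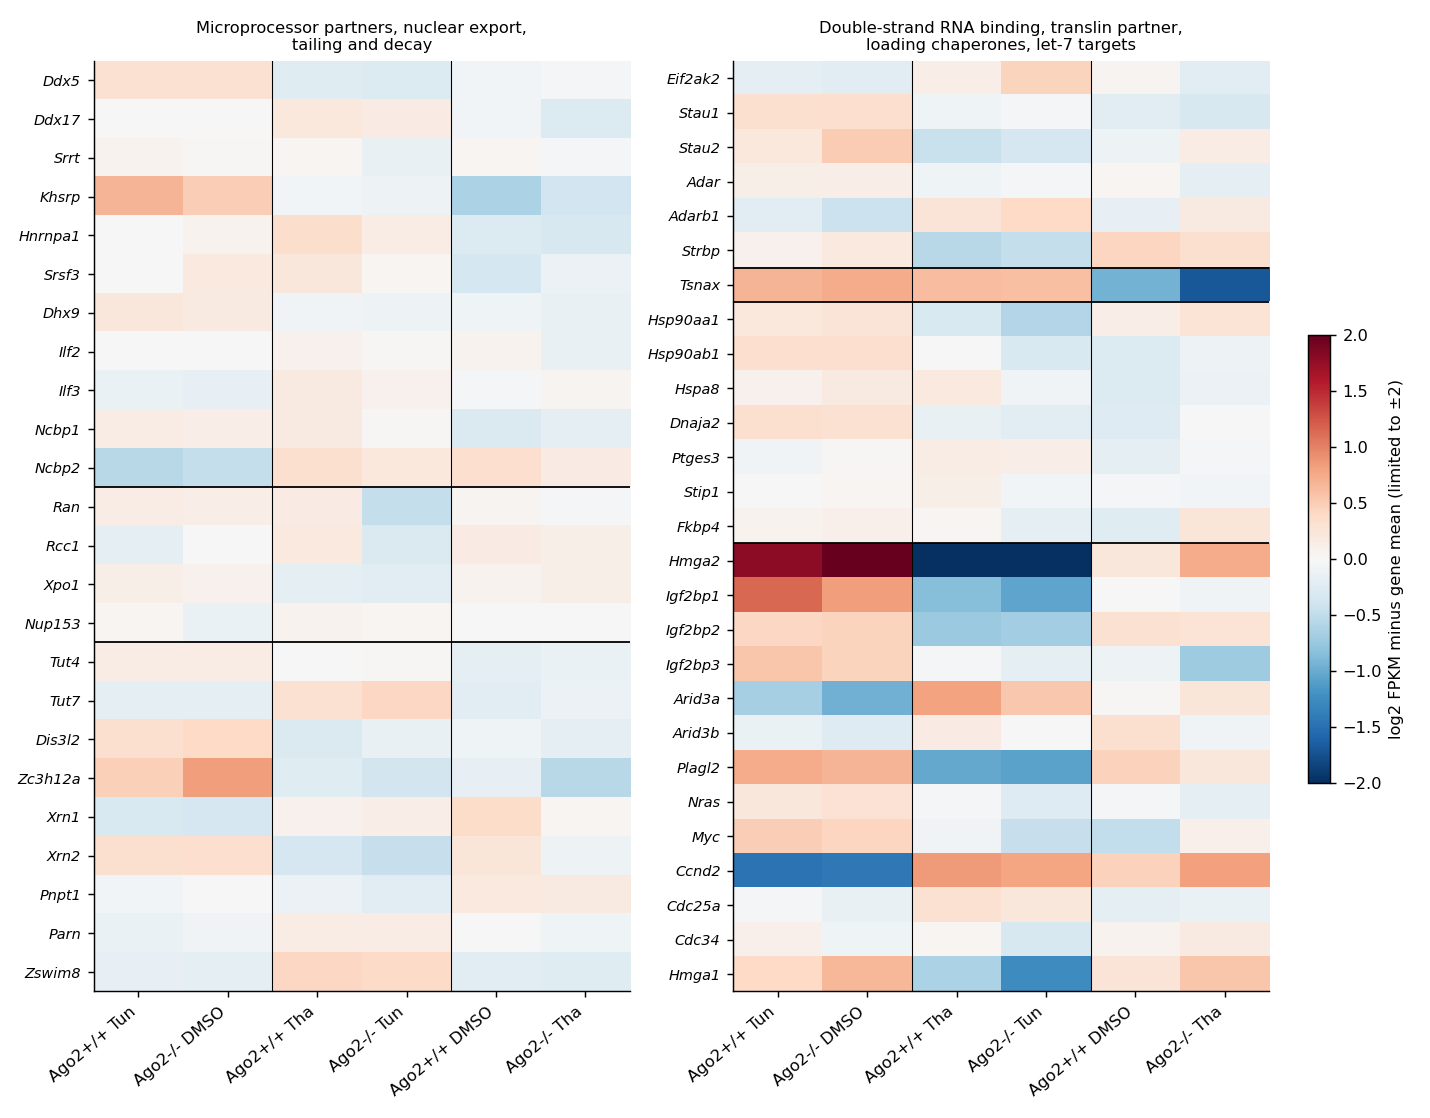
Colours give log2 FPKM minus the mean of each gene (rows) over the 6 groups (columns, close pairs between vertical lines), limited to ±2, for 38 pathway genes and 13 let-7 targets with a mean of at least 1 FPKM, with lists divided by horizontal lines. Tsnax is low in both groups at the right, Hmga2 and Igf2bp1 are high in both groups at the left, and most partner genes stay pale.

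Among primary transcripts, the substrates of Drosha, 10 host genes were found in the table. Of these, 4 had a mean of at least 1 FPKM, as had 11929 of all 51499 loci, and 3, among them Meg3, were listed at 0 in every group, as were 48.7% of loci. Such a 0 can be a failed estimate, so nothing is read from it. Mir99ahg, host of let-7c, miR-99a and miR-125b hairpins, had 5.59 FPKM in Ago2+/+ thapsigargin, the highest value of the list, and 5.30 FPKM in Ago2-/- tunicamycin. It was at 0.0525 FPKM in Ago2+/+ tunicamycin, at 0.0998 FPKM in Ago2-/- DMSO and listed at 0 in Ago2+/+ DMSO and Ago2-/- thapsigargin. Mir99ahg passed the mean of 1 FPKM only through the groups with the higher level, which were the close pair in which Dicer1 was lowest. It was named after its values were seen, and a link to Dicer1 was not tested. Mir17hg, host of the miR-17 cluster, had 3.50 to 5.54 FPKM. Mir155hg was lowest in Ago2-/- tunicamycin, at 0.314 FPKM, and highest in Ago2+/+ DMSO, at 3.26 FPKM. Dnm3os, host of miR-199a and miR-214, ranged from 0.832 FPKM in Ago2+/+ DMSO to 3.02 in Ago2-/- tunicamycin. These transcripts are cut and overlap other genes, so their FPKM need not follow their transcription.

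The loci whose pattern over the 6 groups was most like that of each member were taken by Pearson's r of log2 FPKM, as a description over 6 values that fall into close pairs. For Dicer1 they were Kbtbd8, Yy1 and Gm5045 (r = 0.994, 0.994 and 0.993), among 6165 single-gene loci of which 3.00% had r of at least 0.95. For Xpo5 they were Id2, Gm11878 and Shb (0.996, 0.989 and 0.987), and for Tarbp2 Gm12715, Rplp0 and Atp23 (0.997, 0.994 and 0.993), where 0.843% and 0.941% of loci had r of at least 0.95. The wider pool used for members with a range under 1.5-fold held 10503 loci above 0 in every group, with a mean of at least 0.1 FPKM. Both pools held only loci with a range of at least 1.5-fold, wider than that of Drosha, Prkra or Tsn. The wider pool gave Phldb1, Camsap1 and C230096K16Rik for Drosha (0.998, 0.996 and 0.996), Manba, Zfp946 and Gnb5 for Prkra (0.996, 0.994 and 0.993), and Fastkd1, Gm44507 and Dlgap1 for Tsn (0.999, 0.997 and 0.997). Some of these levels were low. C230096K16Rik reached at most 0.984 FPKM, and Gm44507 and Dlgap1 fell to 0.157 and 0.00803 FPKM in Ago2-/- tunicamycin. Many loci were nearly as alike: 4.71% of that pool had r of at least 0.95 with Tsn, 2.29% with Drosha and 1.93% with Prkra.

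The 250 bases before the RefSeq start of Xpo5, Dicer1 and Tarbp2 are printed because these were the members whose range reached 1.5-fold. They lie at chr17:46202561-46202810 (plus strand), chr12:104751953-104752202 (minus strand) and chr15:102517942-102518191 (plus strand) of GRCm38.p6. Capitals mark a CCAAT box or an NRF1 site.
Xpo5: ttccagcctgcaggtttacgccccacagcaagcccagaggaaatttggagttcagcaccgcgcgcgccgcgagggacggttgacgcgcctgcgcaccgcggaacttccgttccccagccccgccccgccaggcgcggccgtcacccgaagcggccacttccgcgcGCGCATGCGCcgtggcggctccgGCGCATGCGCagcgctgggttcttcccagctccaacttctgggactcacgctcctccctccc
Dicer1: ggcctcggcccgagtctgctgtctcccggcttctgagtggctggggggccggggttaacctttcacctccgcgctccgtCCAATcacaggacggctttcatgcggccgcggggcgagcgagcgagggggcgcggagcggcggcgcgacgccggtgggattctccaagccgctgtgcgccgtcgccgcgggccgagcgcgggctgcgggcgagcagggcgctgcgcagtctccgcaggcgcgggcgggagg
Tarbp2: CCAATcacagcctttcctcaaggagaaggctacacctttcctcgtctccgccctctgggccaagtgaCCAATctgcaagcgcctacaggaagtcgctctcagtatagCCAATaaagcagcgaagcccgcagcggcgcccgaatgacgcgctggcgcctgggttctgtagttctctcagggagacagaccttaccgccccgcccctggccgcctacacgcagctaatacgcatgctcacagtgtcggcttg
All 8 members had an entry among 32851 promoters, and motifs were searched on both strands. The motifs of ER stress were the ERSE (CCAAT and CCACG with 9 bases between them), ERSE-II (ATTGG and CCACG with 1 base between them), UPRE (TGACGTGG) and CARE (TGATGNAA), held by 0.113%, 0.0304%, 0.563% and 3.45% of all promoters, and by 0 of 8 members. The CCAAT box alone (CCAAT, which the ERSE contains and ERSE-II contains on the other strand) was held by 33.8% of promoters and by 6 of 8 members, all but Xpo5 and Prkra. The NRF1 site (GCGCA followed directly by TGCGC, the same on both strands) was held by 0.782% of promoters and, among members, by Xpo5. These matches describe letters in a window and show no binding.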

How the data were processed

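Per the labels, the authors sequenced total RNA of 18 MEF libraries. The submitters' processing notes name FastQC 0.11.7, HISAT2 2.1.0, StringTie 1.3.4d, Cuffdiff 2.2.1 and the build GRCm38, and the methods of the study name Ensembl release 91. No source used here gives strandedness or library scaling. The deposited FPKM is an estimate by the authors for each group, pooled over its libraries, in 772485 rows that hold 51499 loci and 15 pairs of groups. Columns with the authors' own fold changes, test statistics, p-values, q-values and calls were not used, and 0 columns of other samples were left out.

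Groups follow the library titles. The Ago2+/+ groups are named DCR1 there, for a reason not given, and in 4 libraries another label contradicts the genotype. Log2 ratios were taken without a pseudocount where both FPKM were above 0, over loci that averaged 1 FPKM or more, and were counted from 1.5-fold. Without values per library no test was run. Library depth is unknown: 33.6% to 64.4% of a group's low values came within 0.1 of whole reads at the best step tried, and 20% would without steps. Coordinates are from GENCODE vM21 and sequences from RefSeq (GRCm38.p6). Besides the members, the genes named were those of each list with the largest ratio of highest to lowest group, up to 3 (which leaves out genes listed at 0 in a group), and the 3 loci most like each member by Pearson's r, plus Ago2, sex-linked and ER stress genes and Lin28a, Tsnax, Eif2ak2, Hmga2 and Igf2bp1. Trmt2a, Ranbp1, Snhg3, Meg3, Mir99ahg, Thy1, Cd68, Col1a1, Vim and S100a4 were named after their values were seen. Members and lists were chosen with earlier results of these data known. A gene of the let-7 target list is not reported here. Alternatives were a pseudocount of 1 FPKM, centring on the median locus, scaling by the upper quartile, a lower limit (0.32 on the log2 scale) and a limit of 2-fold, other filters on low values, and leaving out loci that hold more than 1 gene. Scripts ran in Python 3.11.15 with pandas 2.3.3 and numpy 2.4.6 and were tested on simulated data.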

Additional observations from a re-analysis of the deposited data

Results flagged for a closer look

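Xpo5 and Dicer1 had stressor ratios of opposite sign in the 2 genotype labels, each at least 0.32 in size on the log2 scale. The share of all loci that met this rule was not counted, so it is not known whether these members stand out. Xpo5 under tunicamycin had a log2 ratio to DMSO of 0.76 in the Ago2+/+ label and −0.51 in the Ago2-/- label, a difference of −1.28. Under thapsigargin its log2 ratios were 0.42 and −0.38, a difference of −0.80. Dicer1 under tunicamycin had log2 ratios of 0.36 and −0.90, a difference of −1.26. None of these differences was tested, because each group has 1 pooled value, and they cannot be told apart from the close pairing of groups with unlike labels.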

How the results depend on the processing

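Of 180 recomputed log2 ratios of members, 179 stayed on the same side of 1.5-fold, and the largest move was 0.08, under scaling by the upper quartile. The exception was Tarbp2 under thapsigargin in the Ago2+/+ label, at 0.55 with that scaling, which took the count of members there from 1 to 0. A small ratio can change sign with scaling, as for Dicer1 under thapsigargin in the Ago2-/- label and Xpo5 between labels under thapsigargin. A limit of 2-fold left 0 members in each of the 6 comparisons that had 1. A lower limit, 0.32 on the log2 scale, gave 3 members under either stressor in the Ago2+/+ label, 3 and 2 under tunicamycin and thapsigargin in the Ago2-/- label, 3, 4 and 2 between labels under the treatments in the order DMSO, tunicamycin and thapsigargin, and 2 in the close pair that holds Ago2+/+ DMSO. The shares of all loci past 2-fold or past the lower limit were not counted, so these counts of members have no background. The share of loci past 1.5-fold within the close pairs was 20.6% to 27.9% without a filter and 1.76% to 5.55% for loci that averaged 5 FPKM or more. Leaving out the locus of Drosha, which carries a further gene name, took the members with a mean of at least 1 FPKM from 6 to 5 and could not change the counts past 1.5-fold, since Drosha was past it in none of the 10 comparisons. No paired analysis was possible because the table pools the libraries of each group, and for the same reason no library could be left out in turn.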
